A study of Saccharomyces cerevisiae with 2 samples.

Results

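Cryptic unstable transcripts (CUTs) and stable unannotated transcripts (SUTs) are short non-coding RNAs that RNA polymerase II makes across the yeast genome, often from the same nucleosome-free regions as messenger RNAs and often on the strand opposite a gene. CUTs are terminated by the Nrd1-Nab3-Sen1 complex, tailed by the TRAMP complex and destroyed by the nuclear exosome with Rrp6, so few copies are seen in wild-type cells. SUTs escape this route more often, and many reach the cytoplasm and are degraded there.

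The features described here are all those placed in the classes CUTs and SUTs by the annotation used for counting, 214 of the 2635 named features with reads in either library. They comprise 90 CUTs and 124 SUTs. The assay was CRAC (crosslinking and analysis of cDNA) in *Saccharomyces cerevisiae*, which sequences the RNA that UV light has joined to a tagged protein after a denaturing purification. The first library came from cells whose Bud22, a nucleolar factor for small ribosomal subunit assembly, carried a His-TEV-protein A tag, and the second from untagged W303 wild type, which gives the background of the purification. Cells of both groups were grown in YPD to an OD600 of 1.0, held for 4 h in SDC-URA with 4-thiouracil, a photoreactive uracil analogue, and irradiated at 365 nm for 30 min. The genotype label makes the control a wild type, although its growth text mentions tagged Bud22. Each group has 1 library, so there is no replicate error, no test and no p-value, and all comparisons are between these libraries. The files give no positions for these transcripts, only SUT053 was found under its name in the R64 gene table, and no genome was used here, so neither coordinates nor sequences are given.

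The Bud22 library held 215982 sense reads counted over named features and the control 132895. Mapped reads were fewer, 188065 with Bud22 and 97270 in the control, so some reads were counted at several features. The sense totals are the denominators of all library shares by reads below, which are thus not shares of mapped reads. The deposited column headed as a number of reads held distinct entries, as inferred from its values, and 1 entry stood for 36.5 sense reads on average with Bud22 and for 3.58 in the control. Copies of an entry need not be independent molecules, which was not tested. The 95% intervals (exact, Clopper-Pearson for shares and conditional binomial for ratios) treat every count as independent. Intervals on reads can therefore be too narrow, and none covers variation between replicates. Entries are given beside reads.

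CUT reads on the annotated strand took a larger share of the Bud22 library than of the control, whereas antisense CUT reads and SUT reads on both strands took a smaller one. There were 326 sense CUT reads with Bud22 against 94 in the control, or 0.151% (0.135 to 0.168) and 0.0707% (0.0572 to 0.0866). The ratio of shares was 2.13 (1.69 to 2.71), and 3.14 (1.71 to 5.58) by entries, of which there were 19 and 38. This direction rested on CUT577. Without it the read ratio was 0.969 (0.743 to 1.27). Of the control reads, 46 lay in CUT403 alone, and without that transcript the ratio was 4.18 (3.08 to 5.78). With both left out, a choice made after their values were seen, it was 1.90 (1.36 to 2.69) by reads and 3.14 (1.57 to 6.01) by entries.

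There were 91 antisense CUT reads with Bud22 against 295 in the control, or 0.0421% and 0.222%. Their ratio was 0.190 (0.148 to 0.241) by reads and 0.301 (0.119 to 0.635) by entries, with 7 entries against 146. For SUTs, sense reads numbered 48 and 117, a ratio of 0.252 (0.177 to 0.356). By entries, 9 against 68, the SUT sense ratio was 0.830 (0.364 to 1.67), an interval that includes 1. Antisense SUT reads had the lowest ratio of the 4 at 0.0895 (0.0664 to 0.119), with 56 against 385 reads. On 13 against 147 entries the ratio was 0.555 (0.288 to 0.978).

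The choice of total moved all 4 ratios, up or down. With totals without rRNA they fell, to 1.35 (1.07 to 1.71) for sense and 0.120 for antisense CUT reads. For sense and antisense SUT reads they fell to 0.159 and 0.0565. With mapped reads as totals, no ratio left its interval. With totals without rRNA and tRNA, the classes that take most sense reads in both libraries, the ratio was 6.25 (4.95 to 7.95) for sense CUT reads, 0.556 (0.434 to 0.705) for antisense CUT reads and 0.262 (0.194 to 0.348) for antisense SUT reads. For sense SUT reads it was 0.739 (0.517 to 1.04), an interval that includes 1, so their lower share did not hold there.

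**Figure D1:**
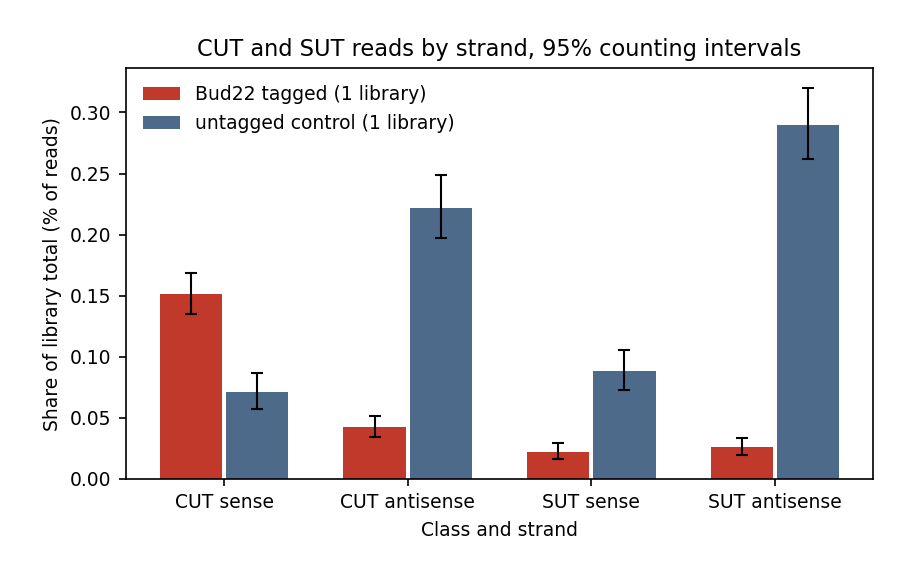
Share of each library's summed sense counts over named features (vertical axis, %) taken by CUTs and SUTs on each strand (horizontal axis). Bars give the Bud22 and control libraries, and error bars the exact 95% counting intervals. The Bud22 bar is the taller one for sense CUT reads, at 0.151% against 0.0707%, and the shorter one in the other groups.

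The protein-coding class served for comparison, and whether its reads come from messenger RNAs was not tested. Over both strands, 1 feature held 6710 of its 17540 reads with Bud22, and 1 held 5019 of 24190 in the control. Protein-coding features had a sense ratio of 0.297 (0.288 to 0.305). Per 100 sense reads of protein-coding features there were 4.74 sense CUT reads with Bud22 and 0.658 in the control, an odds ratio of 7.19 (5.69 to 9.17), and 8.16 (4.40 to 14.7) by entries. Sense SUT reads numbered 0.698 and 0.820 per 100, with an odds ratio of 0.851 (0.594 to 1.202) whose interval includes 1. By entries it was 2.16 (0.940 to 4.39). The classes also differed from each other, and the odds ratio of sense CUT over sense SUT reads was 8.42 (5.52 to 12.98), or 3.74 (1.44 to 10.4) by entries. On the antisense strand the odds ratio against protein-coding antisense reads was 0.287 (0.224 to 0.365) for CUTs and 0.135 (0.100 to 0.180) for SUTs. By entries these were 0.395 (0.155 to 0.843) and 0.728 (0.375 to 1.30), so the lower SUT value held by reads only.

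The strand balance of CUTs was opposite in the libraries. Antisense reads made up 21.8% (17.95 to 26.1) of CUT reads with Bud22 and 75.8% (71.3 to 80.0) in the control. By entries the shares were 26.9% and 79.3%, and the odds ratio was 0.0893 (0.0632 to 0.125) by reads and 0.0973 (0.0321 to 0.263) by entries. Without CUT577 the share with Bud22 was 38.1% (31.9 to 44.6), and counting each member at its main strand it was 37.5% (8.52 to 75.5) against 75.6% (65.1 to 84.2) in the control. Leaving out CUT577 and CUT748, the most counted CUT of each library and a choice made after values were seen, gave 26% and 67.9% by reads and 25.0% and 72.8% by entries. For SUTs the antisense share was 53.8% (43.8 to 63.7) with Bud22 and 76.7% (72.7 to 80.3) in the control. Their odds ratio was 0.355 (0.224 to 0.564) by reads and 0.669 (0.251 to 1.87) by entries, an interval including 1. Without SUT711 and SUT508 the SUT shares were 66.7% and 70.9% by reads. Protein-coding features went the other way, with 60.8% antisense reads with Bud22 and 41.0% in the control. Single features held a large part of the reads of that class, as given above. In intergenic regions, where the files count most antisense reads, the shares were 81.4% and 80.3%.

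**Figure D2:**
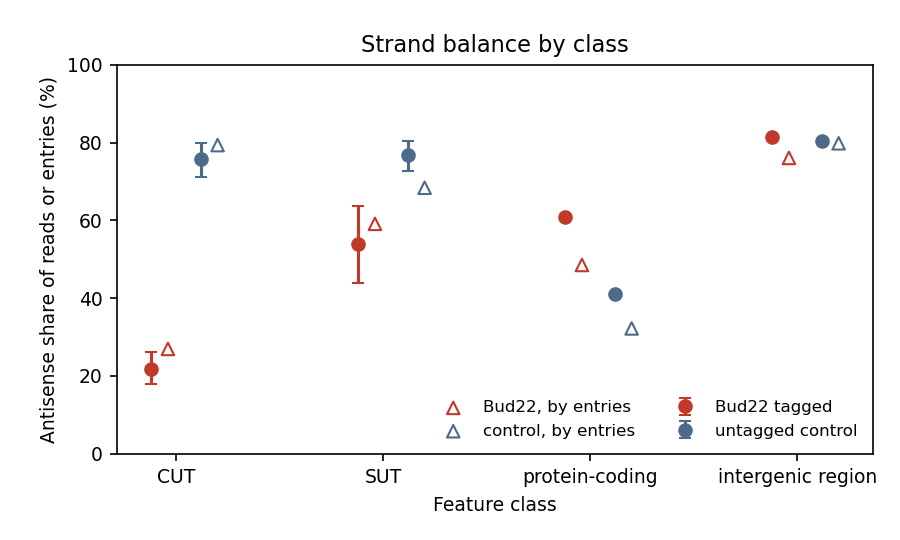
Antisense share (vertical axis, %) of the reads (filled points, with exact 95% counting intervals) and of the distinct entries (open triangles, without intervals) of 4 feature classes in the Bud22 and control libraries. CUTs lie at 21.8% and 75.8% by reads, the widest gap of the 4 classes, and protein-coding features are the class in which the Bud22 point is clearly the higher one.

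Fewer members were seen with Bud22 than in the control. Reads on either strand were found for 8 CUTs with Bud22 and 86 in the control, and for 9 and 121 SUTs. The Bud22 numbers were 9.30% and 7.44% of those in the control, beside 7.47% for protein-coding features and 25.9% for intergenic regions. The libraries differ in depth by entries (5920 and 37130 over named features), and the part of this in the numbers seen was not tested. On the sense strand 5 CUTs and 3 SUTs were seen with Bud22, and 23 CUTs and 54 SUTs in the control. On the antisense strand these numbers were 3 CUTs and 6 SUTs, and 67 CUTs and 68 SUTs. No member was seen on both strands in the Bud22 library. In the control 4 CUTs and 1 SUT were.

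Of the members seen with Bud22, 4 of 8 CUTs and 6 of 9 SUTs were also seen in the control, which is 4.65% and 4.96% of the members seen there. For protein-coding features 111 of 149 recurred (74.5%), which is 5.57% of those in the control, and for intergenic regions 86.9% recurred. With 8 and 9 members, no difference from these shares is read here. All 10 had their reads mainly on the same strand in both libraries. The same share was not computed for other features, so this is not read as particular to CUTs and SUTs. By strand, 1 of the 5 sense CUTs (CUT814) and all 3 antisense CUTs recurred, as did all 3 sense SUTs and 3 of the 6 antisense SUTs. The 4 CUTs without control reads held 304 of the 417 CUT reads with Bud22, and the 3 such SUTs held 22 of 104 SUT reads.

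CUT577 was the most counted member with Bud22. Its 178 sense reads came from 4 entries, against 0 for the untagged library. Setting that 0 to a floor of 3 reads gave a fold of 36.5. The interval of its read ratio had a lower end of 29.4. Its entries alone gave an interval whose lower end was 4.14. CUT812 followed with 72 sense reads, all from 1 entry, against 0. Against the floor its fold was 14.8, with a lower end of 11.7 by reads. The lower end by entries was 0.161, so the difference is not detectable by entries. CUT634 had 32 sense reads against 0, 6.56-fold higher against the floor with a lower end of 5.04 by reads. On its 3 entries the lower end was 2.59. CUT618 had 22 against 0, 4.51-fold higher against the floor with a lower end of 3.37 by reads. It held more entries than any other CUT or SUT with Bud22, 6, with a lower end of 7.38 by entries. CUT814 was the sense CUT seen in both libraries. It had 22 reads against 5, and the read ratio was 2.71 (1.0004 to 9.15). For its entries, 5 against 4, the ratio was 7.84 (1.69 to 39.5).

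The sense SUTs seen with Bud22 were few and shallow. SUT711 had 26 reads on 2 entries against 4 on 2, a read ratio of 4.00 (1.39 to 15.8) and an entry ratio of 6.27 (0.455 to 86.5) that includes 1. SUT647 had 20 reads on 5 entries against 1 on 1, with ratios of 12.3 (1.97 to 510) and 31.4 (3.51 to 1483). SUT220 had 2 reads against 5, under the minimum of 10 used for calls.

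Sense reads in the control were scattered over many members with CUT403 standing apart. CUT403 had 46 sense reads and 3 antisense reads on 8 entries in the control and none with Bud22. By sense reads it was 24.9-fold lower against a floor of 3 reads, and the interval of its ratio reached up to 0.0514. By entries the interval reached up to 3.67 and included 1. The next sense CUT counts in the control were 7 for CUT065 and 5 for CUT814, followed by 6 CUTs with 3 reads each. Among SUTs the highest sense counts were 7 for SUT555, 6 for SUT193 and SUT627, and 5 for SUT220 and SUT388. Of these SUTs only SUT220 had a read with Bud22.

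Single members held large parts of the antisense reads. In the control CUT748 held 33.2% of antisense CUT reads and SUT508 28.6% of antisense SUT reads. CUT748 had 39 antisense reads on 2 entries with Bud22 and 98 on up to 47 entries in the control. The read ratio was 0.245 (0.164 to 0.358) and the entry ratio 0.267 (0.0314 to 1.02). SUT508 had 12 on 1 entry and 110 on 41 entries, a ratio of 0.0671 (0.0337 to 0.122), and 0.153 (0.00378 to 0.901) by entries. SUT508 was thus lower by both measures. SUT552 was without reads in the Bud22 library and had 80 in the control, but these came from 2 entries. By reads it was 43.3-fold lower against the floor, and the interval of its ratio reached up to 0.0290. By entries the interval reached up to 33.4 and included 1. CUT554 went the other way, with 43 reads on 4 entries against 1 on 1, ratios of 26.5 (4.50 to 1069) and 25.1 (2.48 to 1236). SUT367 had 14 reads on 3 entries against 0, 2.87-fold higher against the floor with a lower end of 2.04 by reads.

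The other antisense members seen with Bud22 did not separate the libraries by reads. SUT190 had 20 reads on 5 entries against 7 on 4, a read ratio of 1.76 (0.714 to 4.92) and an entry ratio of 7.84 (1.69 to 39.5). CUT590 had 9 reads on 1 entry against 6 on 4, ratio 0.923 (0.293 to 3.15). SUT459 had 6 reads on 1 entry against 0, SUT623 had 2 on 1 against 0, and SUT657 had 2 on 2 against 5 on 3. Among antisense members seen in the control only, CUT011, CUT272, CUT899, SUT030 and SUT266 had 11 reads each, SUT069 had 10 and CUT368 had 9. Their entries ranged from 2 for CUT899 to 9 for SUT030.

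**Figure D3:**
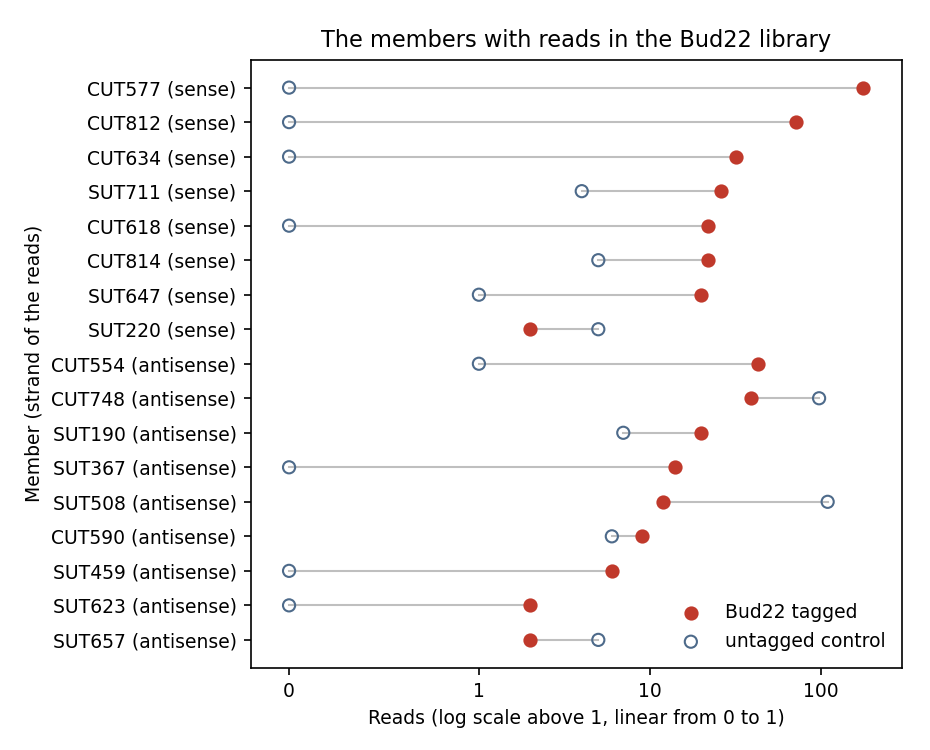
Reads (horizontal axis, log scale above 1 and linear from 0 to 1) of the 17 CUTs and SUTs seen in the Bud22 library, on the strand given beside each name, with filled points for Bud22 and open points for the control. CUT577, CUT812, CUT634 and CUT618 stand at 0 in the control, while CUT748 and SUT508 lie to the right in the control, at 98 and 110 reads.

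Calls of higher and lower needed 10 or more reads over both libraries on a strand, a 2-fold or larger ratio and an interval that left out 1. On the sense strand 8 members reached the minimum, of which 7 were higher and 1, CUT403, was lower. Over all 494 named features measured on that strand, 23.7% were higher and 49.4% lower. The median log2 ratio (pseudocount 0.5) of the 8 was 3.93, beside -0.93 for all measured features. All 7 higher members reached the minimum through their Bud22 reads alone, which ties admission to direction, so neither their count nor the median supports a change of the class. On the antisense strand 13 members reached it, with 2 higher, 9 lower and 2 neither. Of all 118 named features measured there, 21.2% were higher and 69.5% lower, and the median log2 ratio was -5.09 for the members and -5.46 for all. The antisense members thus stood near the background, and 7 of the 9 lower ones, all but CUT748 and SUT508, reached the minimum through their control reads alone. No member had between 8 and 12 reads on the sense strand. On the antisense strand 1 member had 9, 1 had 10 and 5 had 11.

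With the same rule applied to entries, no member reached 10 on the sense strand, where 17.5% of all 342 measured features were higher and 12.6% lower. On the antisense strand CUT748 and SUT508 reached it, and SUT508 was lower. Over all 61 features measured on that strand, 9.84% were higher and 4.92% lower by entries.

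Several of the largest values were shared, count for count, with other features. A member with at least 20 reads in 1 library on a strand was set beside other features, on either strand. These needed the same reads in both libraries, the same entries with Bud22 and control entries within 1. Of 13 such cases, 11 had an equal feature or region and 8 an equal named feature. Each of the 8 had an equal named feature on the opposite strand. This comparison was made after values had been seen. It was not made for other features, so its counts are not read as particular to CUTs and SUTs. Since the files hold no positions, equal numbers do not show that the reads are the same. The antisense reads of CUT748 (39 and 98) equalled the sense reads of 15 of the 17 copies of tD(GUC), an aspartate tRNA. They also equalled the sense reads of KAE1, a gene of the complex that makes the t6A base of tRNAs, which lies next to a tRNA gene in the R64 table. The antisense reads of SUT508 (12 and 110) equalled the sense reads of 8 of 13 copies of tE(UUC), a glutamate tRNA. SUT552 (0 and 80) equalled the sense reads of SCM4 and the antisense reads of its neighbour YGR050C. SUT030, below the 20-read minimum, shared its 11 antisense reads on 9 entries with the proline tRNA gene SUF2.

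For sense reads the equal features were antisense counts of genes. CUT812 (72 and 0) equalled the antisense count of POL1, the catalytic subunit of DNA polymerase alpha. CUT403 (0 and 46) equalled that of RBD2, whose 3 sense reads also equal the 3 antisense reads of CUT403. CUT618 (22 and 0) equalled that of YGR126W and SUT711 (26 and 4) that of YLR446W. SUT647 (20 and 1) equalled the antisense count of YJR114W and the sense count of YOR333C. CUT577 equalled no named feature, only 1 intergenic region on each strand. Members with an equal opposite-strand gene held 288 of 680 antisense reads of both classes in the control (42.4%, 38.6 to 46.2) and 51 of 147 with Bud22 (34.7%, 27.04 to 42.98). On the sense strand they held 51 of 211 in the control (24.2%) and 140 of 374 with Bud22 (37.4%).

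The most counted members held most of each class with Bud22 and less in the control. CUT577 alone held 42.7% (37.9 to 47.6) of CUT reads with Bud22, and CUT577, CUT812 and CUT554 together 70.3% (65.6 to 74.6). In the control CUT748 held 25.4% (21.2 to 30.1), and the top 3 CUTs 40.9% (35.9 to 45.9). SUT711 held 25.0% (17.0 to 34.4) of SUT reads with Bud22, and the top 3 SUTs 63.5% (53.4 to 72.7). SUT508 held 21.9% (18.4 to 25.8) in the control, and the top 3 there 40.0% (35.7 to 44.5). By entries the top 3 held 57.7% (36.9 to 76.6) of CUT entries with Bud22 and 35.4% (28.4 to 42.9) in the control, and 59.1% (36.4 to 79.3) and 25.7% (19.99 to 32.1) of SUT entries. With 8 or 9 members in all, 3 members hold a large part in any case. By strand, sense SUT reads in the control were the most even, with 5.98% in SUT555, the highest.

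**Figure D4:**
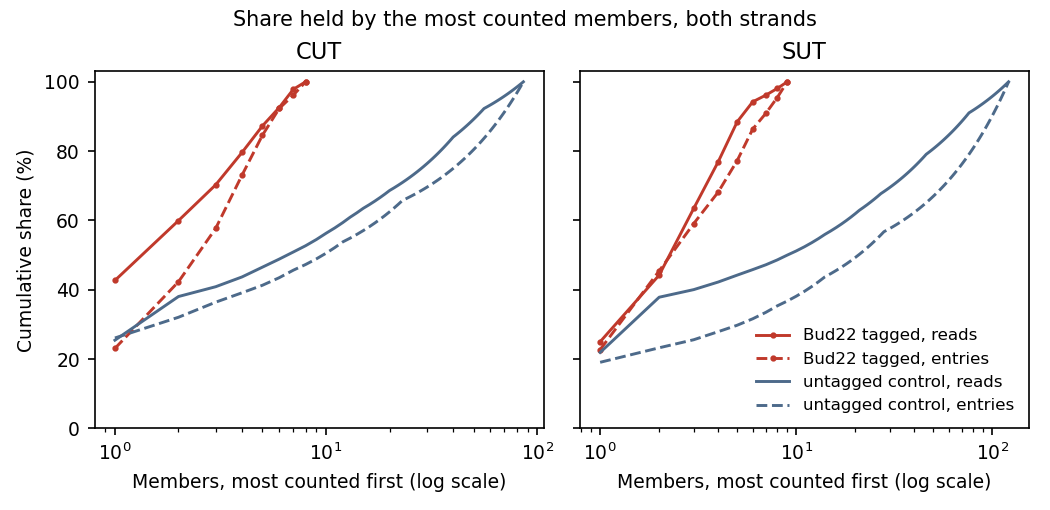
Cumulative share (vertical axis, %) of the reads (solid) and distinct entries (dashed, counted per strand) of CUTs and SUTs held by their members, most counted first (horizontal axis, log scale), in the Bud22 and control libraries. The first 3 CUTs hold 70.3% of reads with Bud22 and 40.9% in the control, and the control curves extend to 86 CUTs and 121 SUTs.

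Most members of the control were at the limit of detection. The median member had 2 reads in both classes, and 30 CUTs and 45 SUTs had 1 read. A single entry lay behind 63 of 86 CUTs (73.3%) and 93 of 121 SUTs (76.9%), beside 63.2% of protein-coding features. The 82 CUTs seen in the control only held 278 reads, 71.5% of its CUT reads, and 65 of them had up to 3 reads. The 115 SUTs seen in the control only held 370 reads, 73.7% of its SUT reads, and 93 had up to 3. Members seen in the control only made up 95.3% of its CUTs and 95.04% of its SUTs, close to the 94.4% of its protein-coding features. With a count of 0 set to the floor of 3 reads, the share would be 0.00139% with Bud22 and 0.00226% in the control. For the members with up to 3 reads, single differences were not detectable at this depth.

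Reads per entry differed between libraries, classes and strands. With Bud22, sense CUT reads had 17.2 reads per entry, antisense CUT reads 13, sense SUT reads 5.33 and antisense SUT reads 4.31. In the control these were 2.47, 2.02, 1.72 and 2.62. The extremes were CUT812 with 72 reads from 1 entry and CUT577 with 44.5 reads per entry with Bud22, and SUT552 with 40 in the control. Their part in the read ratios was not tested beyond the entry ratios given above.

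**Figure D5:**
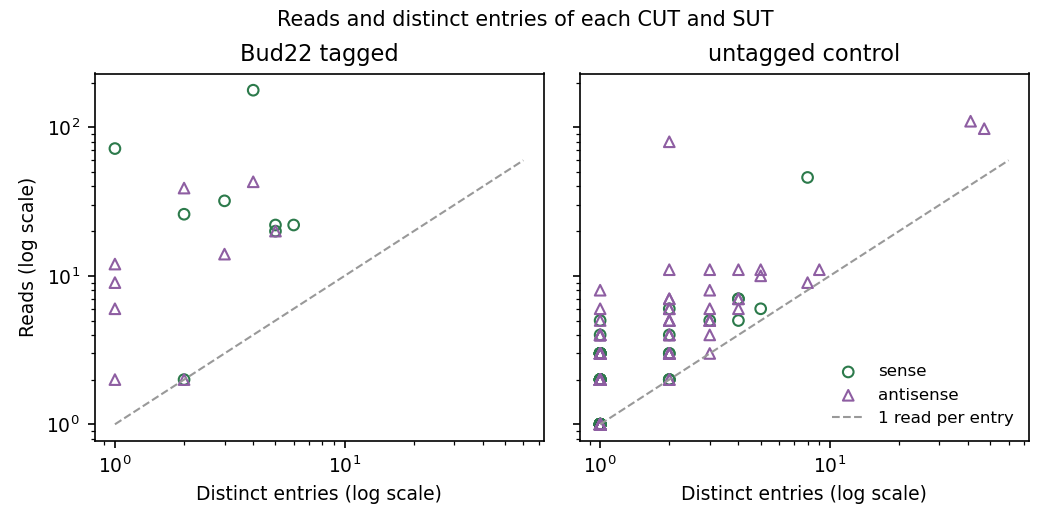
Reads (vertical axis) against distinct entries (horizontal axis, both log scales) of each CUT and SUT with reads in the Bud22 library (left) and the control (right), with the dashed line at 1 read per entry. With Bud22 most members lie far above the line on up to 6 entries, whereas in the control CUT748 and SUT508 stand apart at 47 and 41 entries.

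Genes of the machinery that ends and degrades these transcripts had sense reads in the control at about the rate of protein-coding genes in general. Of 27 such genes listed, 7 had sense reads in the control (25.9%), 21 reads in all, and 1 had sense reads with Bud22 (3.70%). Of the 6021 protein-coding genes in the R64 table, 28% had sense reads in the control and 1.59% with Bud22. With only 1 listed gene seen with Bud22, its rate is not compared with that share. That gene was SEN1, the helicase of the Nrd1-Nab3-Sen1 complex, with 7 reads on 2 entries against 0. Of the 13 exosome genes, 4 had sense reads in the control, among them RRP45, a core ring subunit, with 6 reads, and none had any with Bud22. NRD1, the RNA-binding subunit of the termination complex, had 6 against 0. MTR4, the TRAMP helicase, had 1 sense and 2 antisense reads in the control, the latter being the only antisense reads of the list.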

How the data were processed

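The authors deposited 1 table per library with raw counts of reads per annotated feature on each strand, made with pyReadCounters of Counters version 1.2.1, per the file headers. The last column of counts, which the authors headed as a number of reads, never exceeded the strand sum and was read as distinct entries. The sources used here do not give the aligner settings, trimming, duplicate removal, genome build or annotation release. A read can count at several features, since sense counts over named features exceed the mapped reads in both libraries. How reads were assigned among repeat copies was not tested.

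Groups follow the genotype labels. Totals leave out the intergenic regions, which carry no gene name. They held all but 5.81% of antisense counts with Bud22 and all but 11.0% in the control. Entries were limited to each strand's count, so a member with reads on both strands can be counted under both. Intervals and odds ratios are exact (Python 3.11.15, scipy 1.17.1). The functions were tested on simulated data. Named members are all those with Bud22 reads and, per class and strand, the 5 highest in the control, with ties by count only. Members and lists were chosen with earlier results of these data known. Alternatives were entries, other totals, minimums, folds and intervals, and leaving out the most counted members.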

Additional observations from a re-analysis of the deposited data

How the results depend on the processing

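By reads, the sense CUT ratio of 2.13 moved to 1.35 with totals without rRNA, 6.25 without rRNA and tRNA, 3.14 by entries, 4.18 without CUT403 and 3.14 by entries without CUT577 and CUT403, and turned to 0.969 without CUT577. Under the same pair of totals the antisense CUT ratio moved to 0.120 and 0.556, and to 0.301 by entries and 0.302 over antisense totals. The sense SUT ratio moved to 0.159 and 0.739 (interval including 1) under them, and to 0.830 by entries and 0.120 without SUT711. The antisense SUT ratio moved to 0.0565 and 0.262, and to 0.555 by entries and 0.142 over antisense totals. With mapped reads as totals no ratio left its interval. The antisense share of CUTs with Bud22 was 38.1% without CUT577, 37.5% counting each member at its main strand and 26.9% by entries. In the control it was 67.9% without CUT748, with or without CUT577. For SUTs with Bud22 it was 71.8% without SUT711, 66.7% by main strand and 66.7% without SUT711 and SUT508, and in the control 70.2% without SUT508, 56.2% by main strand, 68.4% by entries, and without SUT711 and SUT508 70.9% by reads and 61.6% by entries. With at least 3 reads, 40 CUTs and 46 SUTs were seen in the control. The top 3 shares by entries were 57.7% and 35.4% for CUTs with Bud22 and in the control, and 25.7% for SUTs in the control. Sense calls of 7 higher and 1 lower became 4 higher with at least 30 reads, 7 lower with no minimum, and 0 higher and 0 lower by entries, where no member was measured. Antisense calls of 2 higher and 9 lower became 1 and 3 with at least 30 reads, 34 lower with no minimum, and 0 and 1 by entries. The cause of these moves was not tested, except that stricter minimums leave fewer members. No paired analysis was possible because each group has 1 library. Depth limits single members, since 48 entries lay behind all CUT and SUT reads with Bud22.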

Other observations

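Among members with few reads, SUT220 had 2 sense reads with Bud22 and 5 in the control, and SUT657 had 2 and 5 antisense reads, with 2 and 3 entries for each. In the Bud22 library SUT190 (antisense) and SUT647 (sense) both had 20 reads on 5 entries, but in the control they had 7 reads on 4 entries and 1 read on 1. CUT554 equalled no named feature, and 1 intergenic region had its 43 and 1 reads on the opposite strand.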
